A study of Homo sapiens with 4 samples.

Results

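The genes of the cytosolic ribosomal proteins were examined in naïve human embryonic stem cells (ESCs) grown in 2-D and in 3-D culture. A gene was taken when it is protein-coding and its GENCODE symbol is RPL or RPS followed by a number, or RPLP0, RPLP1, RPLP2 or RPSA, and the kinase genes named RPS6K and pseudogenes were left out. The choice used names alone, not measured values. It gave 91 of the 60564 genes listed, 55 of the large subunit, 35 of the small subunit and RPS19BP1, which encodes a protein that binds RPS19 and is not itself part of the ribosome. The large subunit genes comprise 46 standard ribosomal proteins, 7 paralogs and 2 readthrough genes that join a ribosomal protein gene to its neighbour. The small subunit genes comprise 33 standard ribosomal proteins, 1 paralog and 1 readthrough gene, and 2 of the 33, RPS4Y1 and RPS4Y2, are Y-linked and are named here without levels. Of the other 89 genes, 83 held enough counts to be tested.

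All 4 libraries came from Elf1, an established naïve human ESC line that was derived from a cleavage-stage embryo, so the results describe a single line. The 2-D libraries (n = 2) came from cells grown adherent on coated plates. The study kept the line on mouse embryonic feeder cells and moved it to feeder-free plates with Matrigel before encapsulation. Its methods do not say on which of these the sequenced 2-D cells grew. The 3-D libraries (n = 2) came from cells that had been dissociated, encapsulated in self-assembling polyethylene glycol scaffolds (PEG-8-SH and PEG-8-Acr) and kept in the same ESC expansion medium for 21 days. Total RNA was depleted of ribosomal RNA and sequenced, and the study describes the replicates as independent biological replicates.

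A ribosome is built from a large and a small subunit, each a folded ribosomal RNA that carries many small, mostly basic proteins. The small subunit holds the mRNA and reads its codons, and the large subunit joins amino acids and passes the new chain through an exit tunnel. The proteins are made in matched amounts, and most of their mRNAs begin with a C followed by a run of pyrimidines, the terminal oligopyrimidine (TOP) motif, through which growth signals set how well these mRNAs are translated and stored.

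The bases around the annotated transcription start are shown for the members with the largest called falls (−0.62 to −0.34). They are also shown for the 8 members called higher that had a RefSeq promoter. A pyrimidine run at the annotated start is common among the standard members but is not shared by all. Among those shown, RPL9, RPL6, RPS26 and RPS4X had no run that held the first transcribed base, and that of RPS15 was 2 bases long. The windows of RPL9 and RPS26 hold a run of C and T a few bases after the annotated start. Whether Elf1 cells start these mRNAs there was not tested. Each window is 30 bases of RefSeq sequence (GRCh38.p14) in the direction of transcription, base 16 is the annotated first transcribed base, and capitals mark the unbroken run of C and T that holds that base. Where a gene had several listed starts, the one with the longest run is given. The members below were lower in 3-D grown cells.
RPL26 (chr17:8383179-8383208, minus strand): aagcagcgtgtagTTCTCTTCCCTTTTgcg
RPL39 (chrX:119791616-119791645, minus strand): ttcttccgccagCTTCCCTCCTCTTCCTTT
RPL31 (chr2:101002274-101002303, plus strand): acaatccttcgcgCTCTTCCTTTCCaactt
RPLP2 (chr11:809952-809981, plus strand): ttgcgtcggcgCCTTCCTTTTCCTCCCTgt
RPL35A (chr3:197950175-197950204, plus strand): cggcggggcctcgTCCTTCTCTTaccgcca
RPL9 (chr4:39458908-39458937, minus strand): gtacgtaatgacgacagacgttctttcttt
RPS21 (chr20:62387088-62387117, plus strand): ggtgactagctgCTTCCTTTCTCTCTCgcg
RPS12 (chr6:132814554-132814583, plus strand): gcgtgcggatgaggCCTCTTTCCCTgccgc
RPS14 (chr5:150449725-150449754, minus strand): ccgccccctcccaCTCTCTCTTTCCggtgt

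The members below were higher in 3-D grown cells.
RPL6 (chr12:112409271-112409300, minus strand): ggggagacggcgcgtgcactgtgttcctgg
RPL12 (chr9:127451392-127451421, minus strand): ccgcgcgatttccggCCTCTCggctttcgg
RPL41 (chr12:56116618-56116647, plus strand): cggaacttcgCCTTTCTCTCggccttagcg
RPL27A (chr11:8682777-8682806, plus strand): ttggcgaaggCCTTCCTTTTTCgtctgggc
RPL11 (chr1:23691791-23691820, plus strand): cggaagctccgCTTTCTCTTCCTgctctcc
RPS26 (chr12:56041903-56041932, plus strand): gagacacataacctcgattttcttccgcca
RPS15 (chr19:1438381-1438410, plus strand): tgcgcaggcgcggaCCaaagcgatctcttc
RPS4X (chrX:72277234-72277263, minus strand): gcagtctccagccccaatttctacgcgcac

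A RefSeq promoter was found for 62 standard members. In 46 of the 62 (74.2%) a listed start was a C that opened a run of at least 5 C or T, against 5.14% of all 27305 genes in the table. The motif was found in 20 of 24 members called lower (83.3%), in 4 of 8 called higher and in 21 of 29 tested but not called (72.4%). These shares describe the annotated starts, not the starts used in Elf1 cells. Searched on both strands of the same 300-base windows, the letters GGGCGG stood in 58.1% of the standard members and 48.3% of all genes, CCAAT in 35.5% and 39.7%, and TATAAA in 8.06% and 14.0%. CCGGAAGT stood in 14.5% and 4.95%, and AAGATGGCG in 8.06% and 2.14%, and none of the 5 words contains another.

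The libraries held 33833778 and 30114220 counts in 2-D and 21154409 and 18276147 in 3-D, so the 3-D values rest on fewer counts. Mitochondrially encoded genes took 5.10% to 5.30% of the counts in 2-D and 8.33% to 8.50% in 3-D, which changes any share of all counts, and their part in the results was not tested beyond the values given below. Levels are therefore given as CPM (a gene's counts scaled to a common library total) after TMM scaling, which sets the bulk of genes equal between libraries. Across 22555 genes tested with edgeR's quasi-likelihood test, 758 (3.36%) were called lower in 3-D and 1024 (4.54%) higher, at a Benjamini-Hochberg adjusted p under 0.05. Both 3-D libraries lay below both 2-D libraries in 25.1% of tested genes and above them in 25.4%. None of the 6 core pluripotency markers was called (4 at an unadjusted p under 0.05, 1 with DESeq2), and they summed to 3677 to 3797 CPM in the 4 libraries. Of the naïve markers none of 6 tested was called (0 at an unadjusted p under 0.05, 0 with DESeq2), and of 6 primed markers 2 were called higher. The ectoderm, endoderm and trophoblast markers summed to at most 6.26, 8.18 and 4.84 CPM and the mesoderm markers to 66.1 to 71.3 CPM. Of the 4 fibroblast markers COL1A1 was called higher, COL1A2 was at 320 ± 6.03 CPM in 2-D and 312 ± 16.8 CPM in 3-D and was not called (edgeR adjusted p = 0.649), and DCN and LUM stayed under 1 CPM. Of 6 proliferation genes MKI67 was called higher and CDK1 lower. In bulk RNA, fewer cells that express a gene and less RNA per cell cannot be told apart.

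Among the large subunit genes, 18 of the 51 tested passed the test as lower in 3-D culture (35.3%) and 6 as higher (11.8%), where 3.36% and 4.54% of all genes were. Of 2063 protein-coding genes outside the family with a mean of at least 100 CPM, 9.31% were called lower and 20.7% higher. The share of large subunit genes called higher was thus below that of these genes. The median change of the large subunit genes was −0.05 on the log2 scale (−3.58%), and the median over all tested genes was −0.00013. Both 3-D libraries lay below both 2-D libraries for 26 of the 51 genes (51.0%, against 25.1% of all genes). They lay above for 14 (27.5%, against 25.4%), and 11 overlapped. The changes ran from −0.62 for RPL26 to 0.22 for RPL6. Scaled by library size alone 25 were called lower and 3 higher, and without 3-D replicate 2 the calls were 21 lower and 14 higher. In a fit of the 14305 protein-coding genes alone 20 were lower and 6 higher, and the same fit with offsets for coding length and GC content gave 14 lower and 12 higher.

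**Figure D1:**
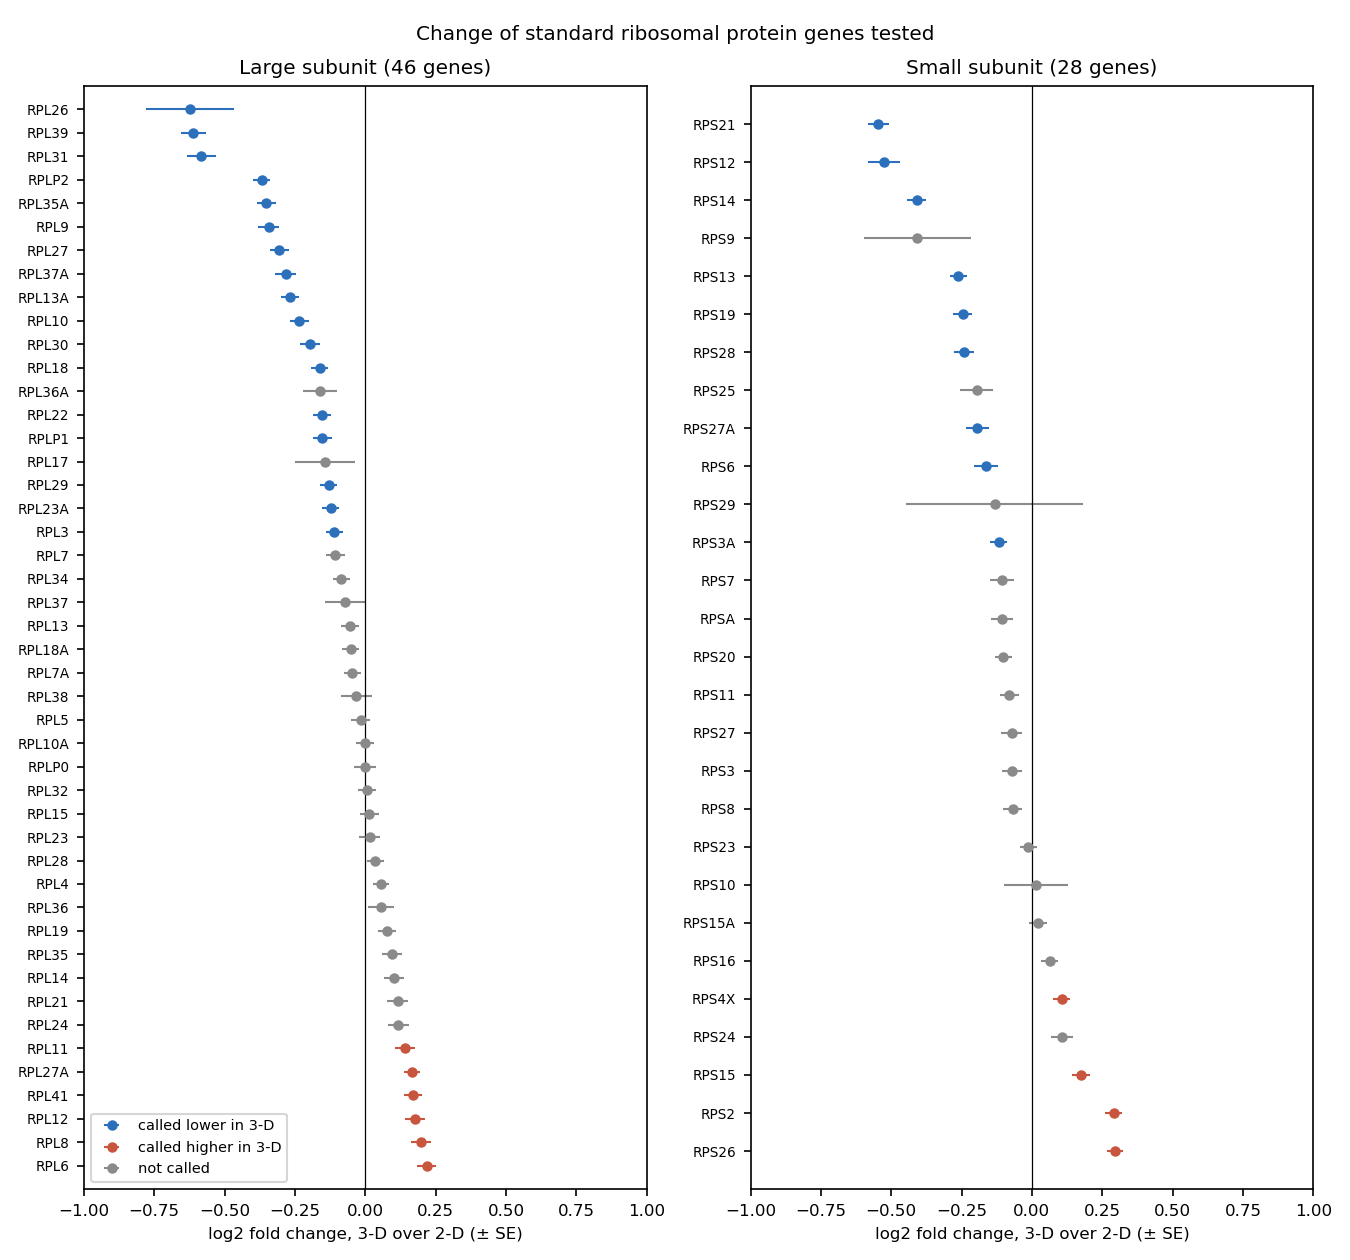
Log2 ratio of the 3-D to the 2-D level (horizontal axis, bars are ± 1 standard error) for 46 large and 28 small subunit standard ribosomal protein genes, sorted within each subunit, with blue for genes called lower, red for genes called higher and grey for genes not called. Called falls reached −0.62 and called rises 0.30, and RPS29 and RPS9 carry the widest bars.

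The largest fall in the large subunit with a small error was in RPL39, a very short protein that lines the exit tunnel. RPL39 stood at 575 and 565 CPM in 2-D and at 393 and 353 CPM in 3-D. The conditions did not overlap, and the change was −0.61 ± 0.043 (SE; edgeR adjusted p = 5.18e-06). RPL31, which sits at the mouth of the tunnel, was at 419 and 410 CPM in 2-D and at 297 and 256 CPM in 3-D. The change of −0.58 ± 0.052 was larger than the gap between the libraries of either condition (edgeR adjusted p = 3.49e-05). RPL26, another protein of the tunnel mouth, was at 111 and 102 CPM in 2-D and at 87.6 and 49.9 CPM in 3-D. Its 3-D libraries differed from each other by more than 3-D replicate 1 differed from 2-D, so the change of −0.62 carried a standard error of 0.156 (edgeR adjusted p = 0.0285). Leaving out 3-D replicate 2 gave −0.28, leaving out 3-D replicate 1 gave −1.09, and DESeq2 did not call it.

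RPLP2, an acidic protein of the stalk that recruits elongation factors, was at 248 and 243 CPM in 2-D and at 192 and 188 CPM in 3-D. The libraries of each condition lay close together, and the change was −0.37 ± 0.031 (edgeR adjusted p = 2.19e-05). RPL35A, which is needed for large subunit maturation and is mutated in some patients with Diamond-Blackfan anemia, was at 405 and 408 CPM in 2-D and at 328 and 309 CPM in 3-D. RPL9, a protein near the base of the stalk, was at 558 and 559 CPM in 2-D and at 459 and 421 CPM in 3-D. Both genes fell without overlap, RPL35A by 0.35 ± 0.034 and RPL9 by 0.34 ± 0.038 on the log2 scale (edgeR adjusted p = 6.81e-05 and 0.000205). The 12 other large subunit genes called lower were RPL27, RPL37A, RPL13A, RPL10, RPL30, RPL18, RPL22, RPLP1, RPL22L1, RPL29, RPL23A and RPL3, with changes from −0.31 to −0.11. Without 2-D replicate 1 the calls of RPL18, RPLP1, RPL22L1, RPL29, RPL23A and RPL3 were lost at changes of −0.15 to −0.10, and without 2-D replicate 2 those of RPL22, RPLP1, RPL22L1, RPL29, RPL23A and RPL3 at changes of −0.15 to −0.12.

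The largest rise in the large subunit was in RPL6, a protein of the solvent side, at 680 and 697 CPM in 2-D and 780 and 822 CPM in 3-D. The change was 0.22 ± 0.034 (edgeR adjusted p = 0.00172). RPL8, which lies close to the peptidyl transferase center, was at 816 and 796 CPM in 2-D and 955 and 895 CPM in 3-D. RPL12, which forms the base of the stalk, was at 504 and 527 CPM in 2-D and 598 and 567 CPM in 3-D. RPL41, the smallest ribosomal protein and part of a bridge between the subunits, was at 352 and 356 CPM in 2-D and 389 and 408 CPM in 3-D. All 4 genes were above their 2-D levels in both 3-D libraries, with changes of 0.20 ± 0.035 for RPL8, 0.17 ± 0.035 for RPL12 and 0.17 ± 0.032 for RPL41 (edgeR adjusted p = 0.0044, 0.00944 and 0.00674). RPL27A (0.16 ± 0.029) and RPL11 (0.14 ± 0.035) were the other genes called higher. Scaled by library size alone, RPL11, RPL12 and RPL41 were no longer called and RPL6 and RPL8 still were. The RPL12 call was also lost without 2-D replicate 1 (0.14) and the RPL11 call without 2-D replicate 2 (0.12).

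**Figure D2:**
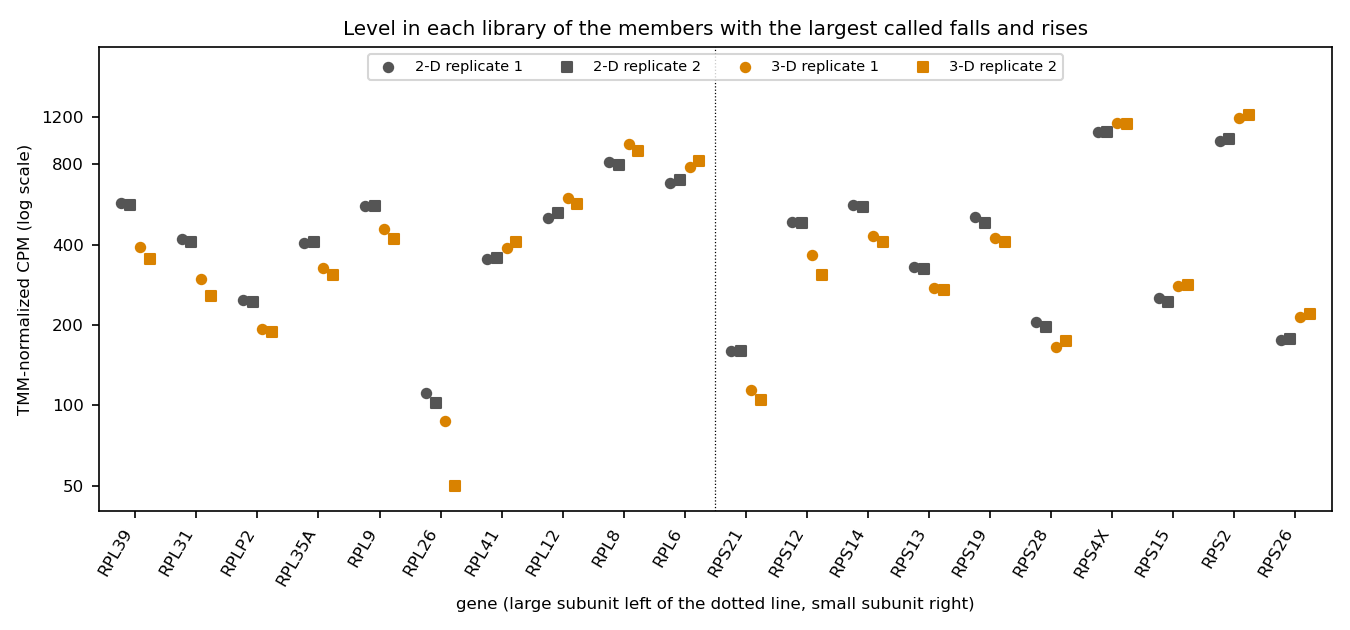
TMM-normalized CPM (log axis) of the members with the largest called falls and rises, large subunit left and small subunit right of the dotted line, with grey points for the 2-D and orange points for the 3-D libraries (circles replicate 1, squares replicate 2). In each gene shown both 3-D libraries lie on one side of both 2-D libraries, and RPL26 has the widest gap within a condition, 87.6 against 49.9 CPM.

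Read by their place in the large subunit, members moved in both directions. In the stalk, RPLP2 and RPLP1 (−0.15 ± 0.034) were called lower. RPLP0, the stalk protein that anchors the other two, was at 908 and 905 CPM in 2-D and 864 and 948 CPM in 3-D, so its conditions overlapped. RPL3 and RPL10, which reach to the peptidyl transferase center, were both called lower, RPL10 from 1050 and 1051 CPM to 864 and 922 CPM (−0.23 ± 0.035, edgeR adjusted p = 0.00136). Of the 8 proteins listed for the tunnel and its mouth, RPL39, RPL31, RPL26 and RPL23A were called lower and none higher. That is 50% called lower, against 35.3% of the large subunit genes tested and 3.36% of all genes. DESeq2 did not call RPL26. The RPL23A call was lost with length and GC offsets (−0.077, edgeR adjusted p = 0.136). It was also lost with coding length and GC offsets in protein-coding genes alone (−0.083, edgeR adjusted p = 0.0618). Both 3-D libraries lay above both 2-D libraries for RPL4, RPL19 and RPL35, and the 8 had a median of −0.13. The 8 include RPL17 (−0.14, not called), with 90.4% of the counts of the gene and its pseudogenes on the pseudogenes. With these added RPL17 was at 0.09. RPL5 and RPL11 travel with the 5S ribosomal RNA and bind MDM2 when ribosome assembly fails. RPL11 was called higher and RPL5 was not called, at 833 and 819 CPM in 2-D against 840 and 793 CPM in 3-D.

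Among the small subunit genes, 10 of the 31 tested passed the test as lower in 3-D culture (32.3%, against 3.36% of all genes) and 4 as higher (12.9%, against 4.54%). Of the 2063 protein-coding genes outside the family with a mean of at least 100 CPM, 9.31% were called lower and 20.7% higher. The share of small subunit genes called higher was thus below that of these genes. The median change of the small subunit genes was −0.10 on the log2 scale (−6.84%). Both 3-D libraries lay below both 2-D libraries for 18 of the 31 genes (58.1%, against 25.1% of all genes) and above for 7 (22.6%, against 25.4%), and 6 overlapped. Scaled by library size alone 19 were called lower and 3 higher. In the fit of protein-coding genes alone 12 were lower and 4 higher with a median of −0.11, and with offsets for coding length and GC content in that fit 9 were lower and 6 higher with a median of −0.05. Without 3-D replicate 1 the calls were 19 lower and 4 higher, and without 3-D replicate 2 they were 12 lower and 7 higher with a median of −0.05.

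RPS21, a small protein that sits beside RPSA and RPS2 on the subunit, had the largest called fall of the small subunit. It was at 160 CPM in both 2-D libraries and at 114 and 104 CPM in 3-D, a change of −0.55 ± 0.038 (edgeR adjusted p = 5.18e-06). RPS12, a protein of the beak, was at 487 and 481 CPM in 2-D and at 364 and 307 CPM in 3-D. The 2-D libraries nearly coincided while the 3-D libraries lay apart, and the change was −0.53 ± 0.057 (edgeR adjusted p = 0.000181). RPS14, which lines the mRNA exit and is encoded in the region lost in 5q- syndrome, was at 565 and 554 CPM in 2-D and at 432 and 411 CPM in 3-D. Its change was −0.41 ± 0.033 (edgeR adjusted p = 1.65e-05). RPS13, RPS19 and RPS28 followed with changes of −0.26 ± 0.030, −0.25 ± 0.033 and −0.24 ± 0.035. RPS19, a protein of the head and the gene most often mutated in Diamond-Blackfan anemia, was at 505 and 482 CPM in 2-D and at 422 and 410 CPM in 3-D. Also called lower were RPS27A, RPS6 and RPS3A, with changes from −0.19 to −0.12. RPS6, the classical substrate of S6 kinase, was at 762 and 799 CPM in 2-D and at 729 and 665 CPM in 3-D. Its change of −0.16 became −0.10 without 3-D replicate 2, and its call was lost without 2-D replicate 2 (−0.13). The RPS27A change of −0.19 became −0.13 without 3-D replicate 2. The RPS3A call was lost without either 2-D library (−0.13 and −0.10).

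The rises in the small subunit were led by RPS26 and RPS2. RPS26, a protein of the mRNA exit, was at 176 and 178 CPM in 2-D and at 215 and 220 CPM in 3-D. RPS2, which lies at the mRNA entry, was at 976 and 991 CPM in 2-D and at 1187 and 1219 CPM in 3-D. Both rose well beyond the spread between libraries, RPS26 by 0.30 ± 0.030 and RPS2 by 0.29 ± 0.030 on the log2 scale (edgeR adjusted p = 0.000108 and 0.000135). RPS15, whose tail reaches toward the decoding center, was at 253 and 244 CPM in 2-D and at 279 and 282 CPM in 3-D (0.17 ± 0.031, edgeR adjusted p = 0.00463), a call that was lost without 2-D replicate 2 (0.15). RPS4X, the X-linked copy of a pair with Y-linked counterparts, was at 1059 and 1061 CPM in 2-D and at 1145 and 1136 CPM in 3-D (0.11 ± 0.029, edgeR adjusted p = 0.045). The RPS4X call was lost when scaled by library size alone and without either 2-D library. Among proteins of the mRNA exit, RPS14 and RPS28 were thus called lower and RPS26 called higher.

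Summed, the large subunit genes took 2.397% and 2.388% of all counts in 2-D culture, and in 3-D culture their share was 2.22% and 2.18%, a difference of −0.190 percentage points. The small subunit genes took 1.45% and 1.44% in 2-D and 1.35% and 1.30% in 3-D, a difference of −0.126 points. The conditions did not overlap in either subunit, and the two-sided exact permutation test gave p = 0.333, the smallest that 2 against 2 libraries allow. The ratio of large to small subunit counts was 1.65 in both 2-D libraries and 1.65 and 1.68 in 3-D (exact permutation p = 1). Without the mitochondrially encoded genes in the denominator the differences were −0.119 and −0.0840 points, and over TMM effective library sizes −0.0878 and −0.0644 points.

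**Figure D3:**
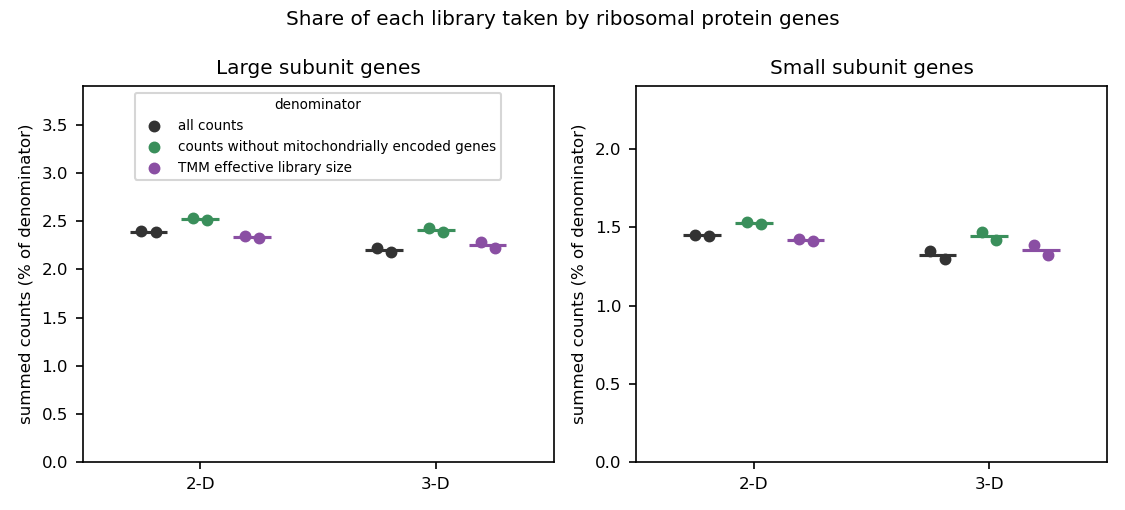
Summed counts of the large (left) and small (right) subunit genes as a percent of the denominator in each library, with points for libraries and a bar for the mean of 2, and colours for the 3 denominators. With each denominator the 3-D libraries lie below the 2-D libraries, by 0.190 points in the large and 0.126 points in the small subunit over all counts.

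Levels of different genes were compared per kilobase of the canonical transcript. On this scale the highest large subunit genes were RPL39 (1208 CPM per kb, mean of the 4 libraries), RPL3 (909) and RPL19 (885), and the highest small subunit genes were RPS24 (1387 CPM per kb), RPS2 (1157) and RPS3A (973). In 3-D alone RPL12 (918 CPM per kb) and RPL19 (908) stood above RPL3 (875), and RPS20 and RPS3A were level at 934 CPM per kb. Several members have an annotated canonical transcript far longer than their coding sequence, and per kilobase of coding sequence RPL41 (5014 CPM per kb), RPL39 (3080) and RPL37A (2037) led the large subunit and RPS24 (1899), RPS29 (1442) and RPS23 (1438) the small. RPL39 and RPS24 were among the 3 highest on both scales, and the order of the others depended on the length used.

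Called falls occurred among members with short and with long coding sequences. Of the 25 standard members tested with under 400 coding bases, 11 were called lower (44%, against 3.36% of all genes). Another 2 were called higher (8%, against 4.54%), and the median of the 25 was −0.15. Of the 51 with 400 or more, 16 were called lower (31.4%) and 8 higher (15.7%), and their median was −0.05. The shortest coding sequence, that of RPL41 at 75 bases, belonged to a gene called higher, and the next shortest, RPL39 at 153 bases, to the gene with the largest precise fall. Spearman's rho between coding length and log2 change over the 76 standard members tested was 0.236, a description across genes that share the same 4 libraries. The same split was made for genes outside the family. Among other protein-coding genes with a mean of at least 100 CPM, 28 of 82 with under 400 coding bases were called lower (34.1%) and 15 higher (18.3%), and 164 of 1981 with longer ones were called lower (8.28%) and 412 higher (20.8%). In the fit of protein-coding genes with offsets for coding length and GC content, 14 of the 18 large and 9 of the 10 small subunit genes called lower kept that call, as did all 10 genes called higher.

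**Figure D4:**
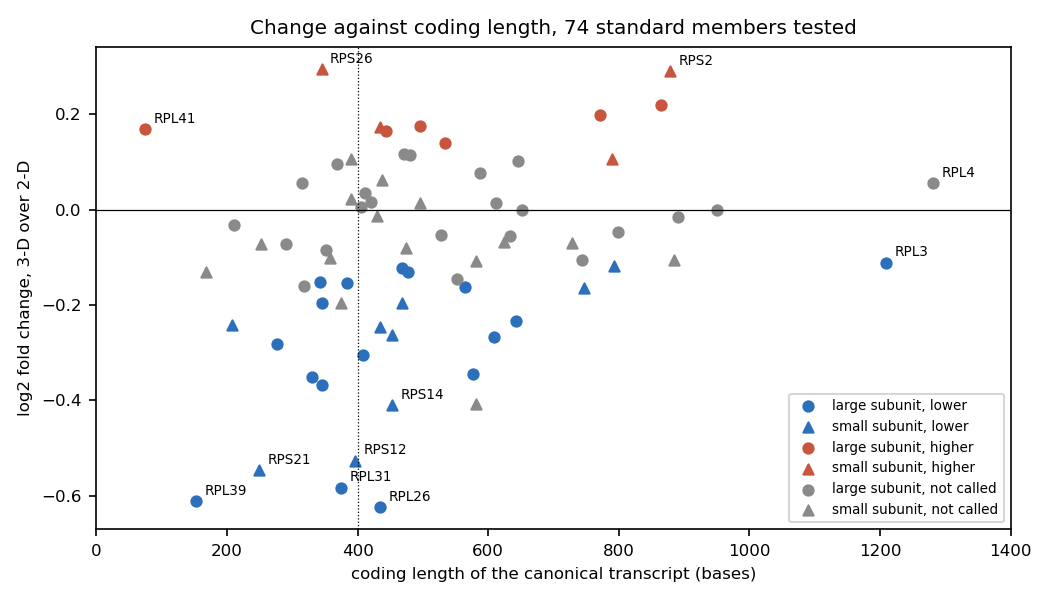
Log2 ratio of the 3-D to the 2-D level against the coding length of the canonical transcript in bases, for 74 standard members tested (circles large, triangles small subunit, colours by call, dotted line at 400 bases). Points called lower lie at most lengths, RPL41 at 75 bases and RPS26 at 345 bases are short genes called higher, and RPL3 at 1209 bases is a long gene called lower.

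Several members were nearly absent from the counts although every ribosome needs their protein. RPS18 had 6 and 3 counts in 2-D and 3 and 1 in 3-D. RPS9 had 100 and 115 counts in 2-D and 54 and 42 in 3-D. RPL17 and RPS10 held 316 and 383 counts in 2-D replicate 1, and both share exon bases with an annotated readthrough gene, RPL17 with RPL17-C18orf32 (611 bases) and RPS10 with RPS10-NUDT3 (730 bases). Whether these levels reflect expression was not tested, and how reads with several matches were counted is not stated. Aligned to hg38, the canonical transcripts of 22 members had a further match of at least 98% identity over at least 80% of their length, and RPS18 and RPS9 had 4 and 9 such matches on alternate contigs. RPL17 and RPS10 had 3 and 1 such matches elsewhere on the main chromosomes. The called genes RPL12, RPL6, RPL9, RPL29, RPL39, RPS2, RPS15 and RPS3A also belong to the 22. Among the 21 of these that were tested, 4 were called lower and 4 higher (19.0% each). Among the members without such a copy, 15 of 39 large subunit genes were called lower (38.5%) and 4 higher (10.3%). Of 22 small subunit genes without one, 9 were called lower (40.9%) and 2 higher (9.09%).

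The pseudogenes of the members carried few counts in most cases. Of 1599 annotated ones, 268 could be tested, and the median was −0.12. Of these, 17 were called lower (6.34%, against 3.36% of all genes) and 9 higher (3.36%, against 4.54%). Among 179 tested pseudogenes of large subunit genes 8 were called lower (4.47%) and 6 higher (3.35%). Among 89 of small subunit genes 9 were called lower (10.1%) and 3 higher (3.37%). RPS18 was the extreme, with 99.6% of the counts of the gene and its pseudogenes on the pseudogenes, which summed to 1312 and 1208 counts in 2-D and 485 and 499 in 3-D. The sum of the gene and its pseudogenes changed by −0.59 (edgeR adjusted p = 0.000548), a value that rests on the pseudogene counts. RPL17 (90.4%) and RPL36A (67.2%) also had most of their counts on pseudogenes, and with these added they were at 0.09 and 0.08 and were not called (edgeR adjusted p = 0.243 and 0.124). For RPL10 the pseudogenes held 17.2% of the counts, and the gene changed by −0.16 with them and −0.23 without them. With all pseudogene counts added to their parent genes, 17 large subunit genes were called lower and 6 higher, and 11 small subunit genes were called lower and 4 higher.

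Paralogs of 8 standard members were compared with their partners by their share of the counts of the pair. RPL22L1 held 38.7% to 39.8% of the RPL22 pair in the 4 libraries, RPS27L 27.7% to 29.0% of the RPS27 pair, RPL7L1 21.9% to 23.9% of the RPL7 pair and RPL36AL 70.3% to 75.6% of the RPL36A pair, whose reads partly lie on pseudogenes. RPL39L, a paralog best known from the testis, held at most 2.69% of the RPL39 pair, and the muscle paralog RPL3L at most 0.0306% of the RPL3 pair. RPL22 and RPL22L1 were both called lower, from 132 and 133 CPM to 117 and 122 CPM for RPL22 (−0.15 ± 0.032, edgeR adjusted p = 0.0104) and from 86.2 and 84.2 CPM to 77.1 and 78.1 CPM for RPL22L1 (−0.14 ± 0.035, edgeR adjusted p = 0.0315). The RPL22 call was lost in 5 of the 19 alternative fits, and with pseudogene counts added the change was −0.088 (edgeR adjusted p = 0.126). The RPL22L1 call was lost in 10 of the 19. RPL26L1 was level at 17.6 and 19.2 CPM in 2-D and 19.2 and 17.7 CPM in 3-D, and its share of the RPL26 pair ranged from 13.6% to 26.1%.

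Among the members the 3-D libraries differed more from each other than the 2-D libraries did. The median absolute log2 difference between replicates over the 76 standard members was 0.0759 in 3-D and 0.0274 in 2-D, and replicate 2 was the lower one for 57 of the 76 in 3-D and for 53 of the 76 in 2-D. In 3-D, 9 members differed by more than 0.2 between replicates and each was lower in replicate 2, and 6 of the 9 have under 400 coding bases. RPS29, which encodes one of the smallest small subunit proteins, was at 260 and 248 CPM in 2-D and at 349 and 112 CPM in 3-D. One 3-D library was thus above and the other below both 2-D libraries, and the change was −0.13 ± 0.315 (edgeR adjusted p = 0.869). Leaving out 3-D replicate 2 gave 0.46, and leaving out 3-D replicate 1 gave −1.18. The exons of RPS29 overlap those of LRR1 on the other strand over 404 bases, and reads of the 2 genes cannot be told apart if strand was not used in counting. They also overlap the processed pseudogene RPL32P29 on the same strand over 403 bases. RPL26 shares 360 exon bases with a readthrough gene on its own strand.

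**Figure D5:**
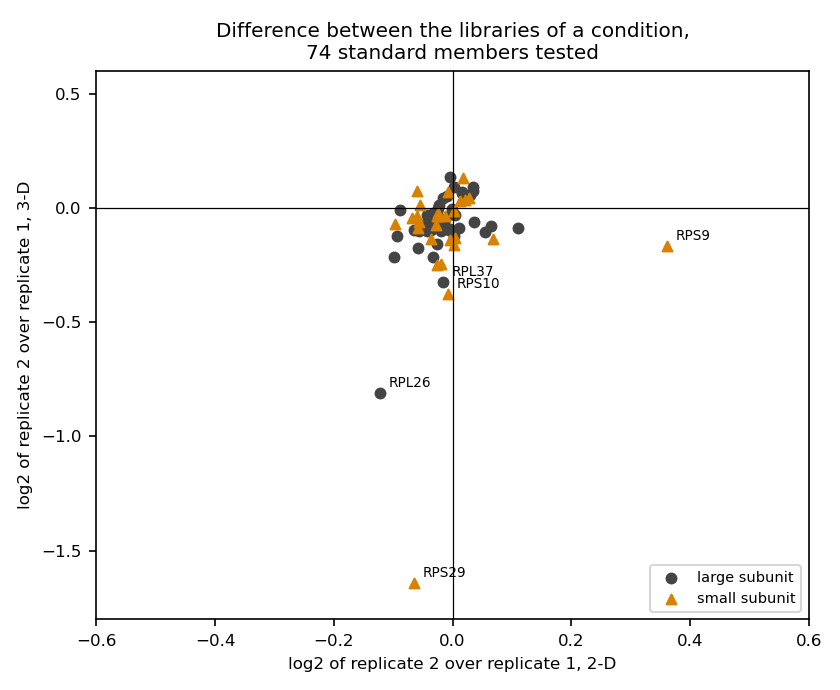
Log2 ratio of replicate 2 over replicate 1 in 2-D (horizontal axis) and in 3-D (vertical axis) for 74 standard members tested, circles for the large and triangles for the small subunit. Most points lie near 0 on both axes, and RPS29 at −1.64 and RPL26 at −0.81 stand far below the rest in 3-D.

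Ribosomal proteins whose symbols the choice by name does not take include FAU and RACK1. FAU, which encodes RPS30 fused to a ubiquitin-like protein, was at 123 ± 4.18 CPM (mean ± SD, n = 2) in 2-D and 109 ± 1.27 CPM in 3-D (−0.17 ± 0.033, edgeR adjusted p = 0.00696). RACK1, the scaffold protein of the small subunit head, was at 822 ± 12.8 CPM in 2-D and 877 ± 1.61 CPM in 3-D and was not called by edgeR's quasi-likelihood test (adjusted p = 0.0819) but was called higher by DESeq2. Among the 19 members listed as Diamond-Blackfan anemia genes 7 were called lower (36.8%) and 2 higher (10.5%), against 33.7% and 12.05% of all 83 members tested, and the largest falls were those of RPL26, RPL31, RPL35A and RPL27.

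The elongation and initiation factor genes and other genes whose mRNAs carry the TOP motif form a further list. Of 19 tested, 7 were called higher (36.8%) and 1 lower (5.26%), the median was 0.09, and the list summed to 19766 and 19782 CPM in 2-D and to 22063 and 22105 CPM in 3-D. The poly(A)-binding protein gene PABPC1 rose from 1548 ± 20.5 CPM to 1878 ± 3.59 CPM (0.28 ± 0.029). NPM1, a nucleolar chaperone of ribosome assembly, rose from 1863 ± 12.8 to 2154 ± 104 CPM (0.21 ± 0.035), and the elongation factor gene EEF1A1 rose from 6139 ± 86.9 to 7051 ± 248 CPM (0.20 ± 0.032). All 3 passed the threshold (edgeR adjusted p = 0.000135, 0.0028 and 0.00209). Of 2063 protein-coding genes outside the family with a mean of at least 100 CPM, 427 (20.7%) were called higher and 192 (9.31%) lower. The difference between these lists and the ribosomal protein genes was not tested.

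Of 20 regulators of TOP mRNAs, which include the mTOR complex and LARP1, 4 were called higher (20%, against 4.54% of all genes) and 2 lower (10%, against 3.36%), and DESeq2 called 3 of the 20. The translational repressor EIF4EBP1 had the largest rise, from 42.6 ± 0.140 to 53.5 ± 1.14 CPM (0.33 ± 0.047, edgeR adjusted p = 0.00104), and the TSC complex subunit TBC1D7 the largest fall, from 21.0 ± 0.114 to 16.8 ± 0.871 CPM (−0.32 ± 0.075, edgeR adjusted p = 0.0214). Of 13 chaperones and importers of ribosomal proteins 1 was called higher and 1 lower (7.69% each), where 4.54% and 3.36% of all genes were. The gene called higher was TSR2, the dedicated chaperone of RPS26, which rose from 99.3 ± 0.897 to 113 ± 7.86 CPM (0.19 ± 0.041, edgeR adjusted p = 0.0146). None of the 7 MYC network genes was called by edgeR's quasi-likelihood test or by DESeq2 (2 at an unadjusted p under 0.05), with changes from −0.08 to 0.17. Of 60 snoRNA genes that lie inside members, 41 had no counts and none of the 14 tested was called by edgeR's quasi-likelihood test or by DESeq2 (4 at an unadjusted p under 0.05). Those without counts overlap annotated exons of a member on the same strand, so their reads cannot be told apart from the member's by position. Whether these snoRNAs are expressed was not tested. The 14 tested had low levels, at most 14.958 CPM in any library (SNORD15B in 3-D replicate 1), so small changes could be missed.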

How the data were processed

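RNA was measured by RNA-seq in 2 libraries of 2-D and 2 of 3-D grown Elf1 cells. Per the submitters' processing notes and the study's methods, the authors trimmed paired reads with Trim Galore 0.6.3, mapped them to hg38 with HISAT2 2.1.0 and assigned them to genes with featureCounts 1.6.4 (GENCODE release 30). Strand use and the treatment of reads with several matches are not given in the sources used here. The deposited counts are raw, with 1 whole number for each gene in each library. The deposited normalized counts (unit signal, counts divided by a DESeq2 2.11.40.6 size factor by the authors) served 1 alternative. The same deposited table holds the authors' mean, fold change, standard error, Wald statistic, p-value and adjusted p-value, which were not used.

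Symbols, biotypes, lengths and positions came from GENCODE release 44, which held 60295 of the identifiers. The 269 others held 0.122% of the counts. The members and all lists were chosen with earlier results of these data known, and the split at 400 coding bases and the level of 100 CPM were chosen after values were seen. Counts were fitted with edgeR 4.0.16 in R 4.3.3 (TMM, filter on low counts, quasi-likelihood test, condition alone, Benjamini-Hochberg adjustment over 22555 genes). Libraries of a condition differed by more than counting noise (chi-square over degrees of freedom 2.27 in 2-D and 3.92 in 3-D), so each was 1 replicate. Standard errors are the size of the log2 change over the square root of F. With 2 libraries per condition, p-values measure the spread between these libraries only. The script was tested on simulated data.

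Named with values were, per subunit, up to 6 called members with the largest falls and up to 4 with the largest rises whose libraries did not overlap, the 3 highest per kilobase, members by role, paralog pairs, and genes of the lists. RPS18, RPS9 and RPS29 were named after their values were seen for their low counts or replicate spread. Near-identical copies were sought with minimap2 2.31-r1302. The lists are Diamond-Blackfan anemia genes, other TOP mRNAs, TOP mRNA regulators, chaperones and importers, MYC network, pseudogenes, snoRNA genes and cell type markers. Features of the protein sequences were not analysed here. Results of some genes are not reported here, and the figures leave these genes out. Replicate numbers did not pair the libraries (correlation of deviations −0.0079), so no block was used in the reported fit. Alternatives were DESeq2 1.42.0, edgeR's likelihood ratio test, edgeR without legacy mode, other scalings, other filters, length and GC offsets, a replicate block, limma 3.58.1 on log2 of the deposited normalized counts plus 1, pseudogene counts added to parents, and leaving out each library. Fits of protein-coding genes alone, without and with offsets from coding length, were added after seeing the data.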

Additional observations from a re-analysis of the deposited data

How the results depend on the processing

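The median of each subunit stayed below 0 under all 19 alternative fits. The reported fit called 18 large and 10 small subunit genes lower, the likelihood ratio test 13 and 7, and DESeq2 16 and 10. Among the calls lost with the likelihood ratio test were those of RPL29, RPL3, RPLP1, RPS6 and RPS3A, called lower, and RPL27A, called higher. For the large subunit, the 6 genes called higher became 3 with the likelihood ratio test and with library size only, 11 without a filter on low counts, 10 with length and GC offsets, 11 with these and a replicate block, and 12 with coding length and GC offsets in protein-coding genes alone (6 in that fit without offsets). Its median of −0.05 became −0.12 with library size only and −0.0115 with coding length and GC offsets. For the small subunit, the 10 genes called lower became 19 with library size only, and the median of −0.10 became −0.17 with library size only, −0.0558 with length and GC offsets, −0.0569 with these and a replicate block, and −0.0491 with coding length and GC offsets. The causes were not tested. Leaving out each library in turn gave 12 to 22 large subunit genes called lower and 5 to 14 higher, and 9 to 19 small subunit genes called lower and 2 to 7 higher, with medians of −0.07 to −0.06 and −0.112 to −0.0506. The share differences ranged from −0.207 to −0.172 points for the large and −0.150 to −0.102 points for the small subunit. Across all genes, 1782 calls became 795 with DESeq2, 1139 with the likelihood ratio test, and 974 and 2643 as the lowest and highest without 1 library.

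With a replicate block in the fit, which the pairing check does not call for, 20 large subunit genes were lower and 8 higher, 13 small subunit genes were lower and 4 higher, and 2167 genes were called in all. Of 40 named genes under 19 fits, 59 calls were lost, 10 gained and 1 direction turned, that of RPS29 (0.46 without 3-D replicate 2 and −1.18 without 3-D replicate 1). Called in every fit were 10 of 18 large and 7 of 10 small subunit genes called lower, and RPL6, RPL8, RPS2 and RPS26 of those called higher. With 2 libraries per condition and 18276147 to 33833778 counts, the smallest change called among the members was 0.11 on the log2 scale (RPS4X), and members with few counts of their own (RPS18, RPS9) were not measured well enough for a change to be stated from the gene alone.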

Other observations

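The 89 members that are not Y-linked are spread over 21 chromosomes, with 12 on chromosome 19, 9 on chromosome 3 and 5 on the X chromosome. Of the 5 X-linked members RPL39 and RPL10 were called lower and RPS4X was called higher. Of all 83 members tested 33.7% were called lower and 12.05% higher, against 3.36% and 4.54% of all genes. Of the 28 standard members tested that hold a snoRNA gene 10 were called lower (35.7%) and 3 higher (10.7%). Of the 48 that do not, 17 were called lower (35.4%) and 7 higher (14.6%), and the medians were −0.08 in both groups. Spearman's rho between mean CPM and log2 change over the 76 standard members tested was 0.213, and between GC content of the canonical transcript and log2 change 0.186, both descriptions across genes of the same 4 libraries.

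Single pseudogenes were called in both directions. RPL10P9 had 4086 and 3654 counts in 2-D and 3150 and 2985 in 3-D and was called higher (0.43, edgeR adjusted p = 2.89e-05), RPL7P1 was called higher as well (0.55, edgeR adjusted p = 5e-05), and RPS18P5 was called lower, with 1024 and 947 counts in 2-D and 338 and 328 in 3-D (−0.80, edgeR adjusted p = 4.64e-05). RPL10P16, a second pseudogene of RPL10, was at −0.23 and was not called (edgeR adjusted p = 0.0851). These pseudogenes were chosen after their values were seen. How reads were split between them and their parent genes was not tested.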
